A study of Homo sapiens with 6 samples.

Results

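The p53 target genes examined here are 35 genes drawn up from general knowledge of the p53 pathway and matched to the deposited gene table by symbol. The list was chosen with earlier results of these data known, so shares of it beside all genes are descriptions and were not tested. Of the 35, 34 were listed among the 14959 genes of the table, and EDA2R, a receptor gene, was not analysed here. The libraries came from UM-SCC1, a long-used human cell line of head and neck squamous cell carcinoma, transfected with miR-204-5p mimics (n = 3 libraries) or with control mimics (n = 3 libraries), each set described as independent experiments. Expression was measured 48 h after transfection. Mimics are synthetic small RNAs that a cell handles like its own mature miRNA, so the comparison asks how the abundance of these transcripts differed once miR-204-5p was supplied. All 6 cultures came from this single line, and the small RNA itself was not measured in these libraries.

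The transcription factor p53 is stabilised by DNA damage and other stresses and that binds paired half-sites in the DNA near its target genes. Its targets halt the cell cycle, repair DNA, adjust metabolism, or start apoptosis and autophagy, and some of them (MDM2, PPM1D) act back on p53 to shut the response off. TP63 and TP73 encode relatives of p53 that recognise similar sites, and TP63 is a defining regulator of squamous epithelium. Many of these genes also respond to other factors, so the level of a target is not a measure of p53 activity alone.

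Levels are FPKM values (mapped fragments scaled to transcript length and library size), which the authors deposited as 1 row per gene, each row naming 1 transcript. The sources used here do not settle whether a value describes that transcript or the whole gene. Changes are log2 fold changes on the log2(FPKM + 1) scale, miR-204-5p mimics minus control mimics, with the standard error (SE) and the adjusted p-value from limma. Values after ± are the SD of 3 libraries. A gene was called changed when the adjusted p-value over all 14959 genes was under 0.05. Comparing 3 libraries with 3, an exact permutation test of a single gene could not give a p-value under 0.1. In bulk RNA, fewer cells carrying a transcript and less of it per cell cannot be told apart.

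The inferred depth was 13.1 to 16.4 M fragments (M, 1e6) per library and overlapped between groups, and Spearman correlations across genes were 0.9899 to 0.9908 within groups and 0.973 to 0.976 between them. Summed FPKM did not overlap, at 283454 to 291864 with miR-204-5p mimics and 276822 to 280056 with control mimics. Median FPKM was 5.81 to 5.89 against 5.61 to 5.69. The main fit did not rescale the libraries. All 8 squamous epithelial markers were detected, with mean levels from 2.07 FPKM for KRT6A to 257 FPKM for KRT17. Their summed level was 588 to 684 FPKM with miR-204-5p mimics and 791 to 814 FPKM with control mimics, with 5 of 8 lower and 2 higher. The leukocyte markers PTPRC, CD3E and MS4A1 averaged under 1 FPKM, whereas CD14 and CD68 were detected, and the 5 markers summed to 21.8 to 24.5 FPKM against 26.7 to 27.9 FPKM in controls. Of 4 endothelial markers sought, KDR was not among the genes of the table. The 3 endothelial markers listed all averaged under 1 FPKM and summed to 0.590 to 0.767 FPKM against 0.443 to 0.502 FPKM. Of 6 fibroblast markers sought, COL3A1, DCN and PDGFRA were not among the genes of the table. Of the 3 listed, COL1A1 was detected at 8.91 FPKM and the other 2 averaged under 1 FPKM. Their sums were 9.81 to 11.5 FPKM against 8.58 to 9.31 FPKM. The part of these markers in the results was not tested.

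With miR-204-5p mimics the p53 target genes split in both directions. Of 34, 11 were lower, 8 were higher and 15 were not called, and without mimic replicate 2 the higher calls numbered 5. Over all genes the higher calls then numbered 2921, beside 3578 with all libraries. The growth-arrest genes BTG2 and CCNG2, the autophagy and apoptosis gene TP53INP1 and the p53 inhibitor MDM2 were among those that fell, and GADD45A, PLK3, DDB2 and DRAM1 were among those that rose. The 19 called genes were 55.9% of the 34, beside 40.8% of all 14959 genes. The lower calls were 32.4% of the 34 against 16.8% of all genes, and the higher calls were 23.5% against 23.9%. These shares depend on the scaling of the libraries. With quantile normalization, 11 of the 34 were lower and 6 were higher, beside 3026 and 3043 of all genes. The groups did not overlap in 21 of 34 genes (61.8%), beside 53.6% of all genes. The median log2 fold change of the 34 was -0.01, and that of all genes was 0.03. The median absolute change was 0.29 against 0.18, and 7 of 34 (20.6%) were called with an absolute change of at least 0.5, against 12.0% of all genes. Of all genes, 3455 averaged under 1 FPKM, beside 1 of the 34. In a fit of the 11504 genes with a mean of at least 1 FPKM, 2433 were lower and 3328 were higher. The p53 target genes among them numbered 33, of which 11 were lower and 8 were higher. The part of expression level in these differences was not tested.

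**Figure D1:**
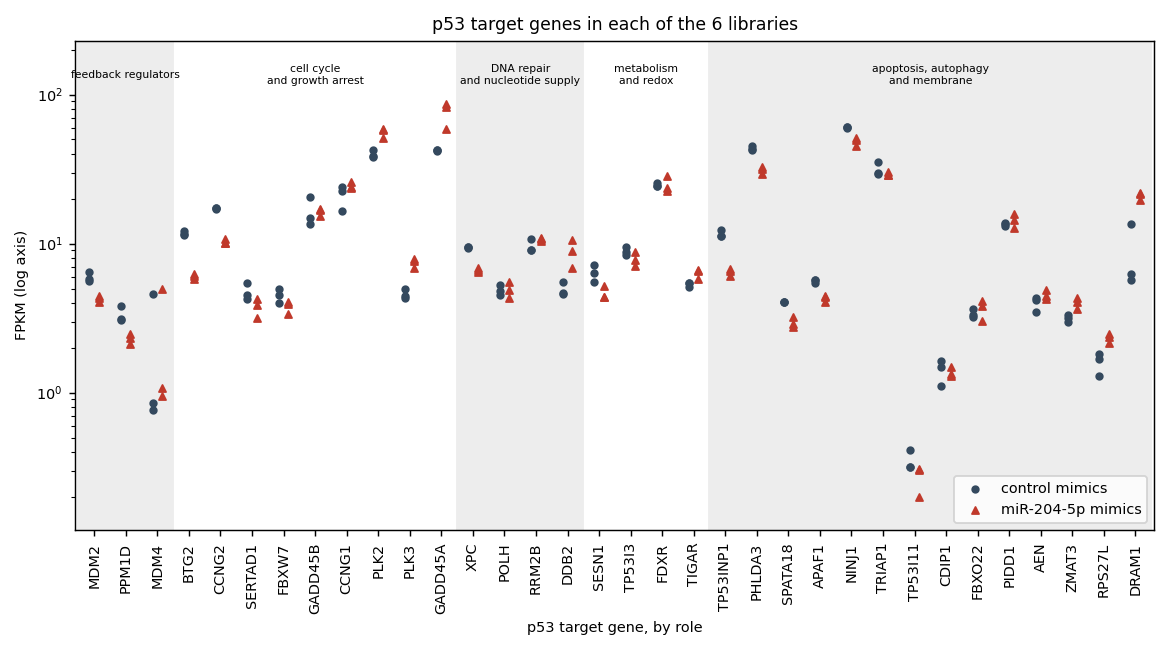
The FPKM of each of the 34 p53 target genes (log axis) is shown in each of the 3 control mimic libraries (dots) and the 3 miR-204-5p mimic libraries (triangles), with genes grouped by role. Levels ran from a mean of 0.310 FPKM for TP53I11 to 59.1 FPKM for GADD45A, and in MDM4 1 library of each group stood far above the other 2.

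The feedback regulators MDM2 and PPM1D fell, and the third, MDM4, was not called. The lower calls were thus 66.7% of only 3 genes, beside 16.8% of all genes, and 23.9% of all genes were higher. MDM2, the ubiquitin ligase that marks p53 for degradation and is itself a p53 target, was listed at 4.09, 4.31 and 4.46 FPKM with miR-204-5p mimics and at 5.60, 6.50 and 5.80 FPKM with control mimics. Every mimic library was below every control library. Its mean was 1.39-fold lower (4.29 ± 0.190 against 5.97 ± 0.471 FPKM), and the log2 fold change was -0.40 (SE 0.0699, limma adjusted p = 0.00514). The listed MDM2 transcript lies at chr12:68808176-68850686 on GRCh38 and shares 133 exonic bases with the oppositely transcribed CPM. PPM1D, a phosphatase that removes activating phosphates from p53 and its kinases, was at 2.11, 2.34 and 2.48 FPKM against 3.06, 3.82 and 3.13 FPKM. These groups did not overlap either, with a log2 fold change of -0.38 (SE 0.0893, limma adjusted p = 0.0147).

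MDM4 encodes a relative of MDM2 that binds p53 and blocks its activation of transcription. It was listed at 4.95, 0.947 and 1.07 FPKM with miR-204-5p mimics and at 4.60, 0.770 and 0.853 FPKM with control mimics. Replicate 1 of each group was thus 4.90-fold (mimics) and 5.67-fold (controls) above the mean of the other 2 libraries of its group. Such a pattern was rare: of 11504 genes with a mean of at least 1 FPKM, 2 had both replicate 1 libraries more than 2-fold above all others, beside 3 genes for replicate 2 and 0 for replicate 3. Genes with both libraries more than 2-fold below all others numbered 1 for replicate 1, 4 for replicate 2 and 1 for replicate 3. The log2 fold change of MDM4 was 0.13, with a 95% interval from -1.29 to 1.55 (limma adjusted p = 0.885). It moved between -0.39 and 0.67 over the alternatives. Leaving out replicate 1 of a single group removes the high value from that group only, so this range does not bear on direction. At each replicate number the mimic value was above the control value, but replicate numbers were not used to pair libraries. MDM4 was called in none of the alternatives, so no direction is given.

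Of 9 cell cycle and growth arrest genes, 2 fell (22.2%), 3 rose (33.3%) and 4 were not called. Of all genes, 16.8% were lower and 23.9% higher. This role held 4 of the 7 genes with a called change of at least 0.5. BTG2, an antiproliferative cofactor of mRNA deadenylation, was at 5.76, 6.30 and 6.11 FPKM with miR-204-5p mimics and at 12.1, 11.4 and 11.6 FPKM with control mimics. The lowest control was well above the highest mimic library, and the mean was 1.93-fold lower (6.06 ± 0.274 against 11.7 ± 0.356 FPKM). The log2 fold change was -0.84 (SE 0.0531, limma adjusted p = 0.000116) for the listed transcript at chr1:203305491-203309569, which is annotated as a nonsense-mediated decay product. The listed transcripts of FDXR, PIDD1 and TP53I11 carry the same annotation. CCNG2, an atypical cyclin that restrains the cycle, was at 10.8, 10.2 and 10.1 FPKM against 17.4, 17.3 and 17.1 FPKM. The 3 controls lay close together, and the log2 fold change was -0.69 (SE 0.0427, limma adjusted p = 0.000113, chr4:77157151-77170059).

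GADD45A, a stress sensor that inhibits the mitotic CDK1 complex and takes part in repair, rose most in this group. It was at 58.4, 86.9 and 82.0 FPKM with miR-204-5p mimics and at 42.7, 41.9 and 42.5 FPKM with control mimics. Its mimic libraries were all above the controls but spread far more (75.8 ± 15.3 against 42.4 ± 0.423 FPKM), with replicate 1 nearest to the controls. The log2 fold change was 0.80 (SE 0.141, limma adjusted p = 0.00512, chr1:67685061-67688338). PLK3, a polo-like kinase of the stress response, was at 7.60, 6.81 and 7.94 FPKM against 4.95, 4.48 and 4.30 FPKM. This was a 1.63-fold higher mean with no overlap (log2 fold change 0.60, SE 0.0765, limma adjusted p = 0.00141, chr1:44800225-44805990), and its listed transcript shares 78 bases with TCTEX1D4 on the other strand. PLK2, a related kinase of centriole duplication, was at 58.0, 58.8 and 51.5 FPKM against 39.0, 38.1 and 42.3 FPKM, also without overlap (log2 fold change 0.48, SE 0.0655, limma adjusted p = 0.00176).

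The other 4 growth arrest genes were not called. CCNG1, the cyclin G1 gene that recruits a phosphatase to MDM2, was at 23.7, 25.8 and 23.8 FPKM against 22.5, 24.0 and 16.5 FPKM, and the groups overlapped (log2 fold change 0.23, limma adjusted p = 0.221). Its paralog CCNG2 thus had the opposite sign, although the difference between the 2 changes was not tested. GADD45B, the second member of its family, had a log2 change of 0.02 (limma adjusted p = 0.912), with 15.2 to 17.0 FPKM in mimic and 13.6 to 20.6 FPKM in control libraries. SERTAD1, a regulator of CDK4 and E2F, was at 3.85, 4.23 and 3.19 FPKM against 5.43, 4.28 and 4.50 FPKM. Its groups did not overlap but the change was not called (log2 fold change -0.27, limma adjusted p = 0.0985). FBXW7, the ubiquitin ligase subunit that targets cyclin E and MYC, had a log2 change of -0.19 (limma adjusted p = 0.143).

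The DNA repair genes XPC and DDB2, which both recognise ultraviolet lesions for nucleotide excision repair, moved in opposite directions. Of the 4 genes of this role, 1 was lower (25%) and 1 was higher (25%), beside 16.8% and 23.9% of all genes. XPC was at 6.41, 6.86 and 6.68 FPKM with miR-204-5p mimics and at 9.50, 9.47 and 9.37 FPKM with control mimics. These libraries were tight within each group, and the log2 fold change was -0.45 (SE 0.0481, limma adjusted p = 0.000719). The listed XPC transcript shares 318 exonic bases with LSM3 on the other strand. DDB2 was at 10.6, 6.89 and 8.90 FPKM against 4.63, 5.55 and 4.57 FPKM, so its mimic libraries were higher and more spread (8.79 ± 1.85 against 4.92 ± 0.547 FPKM). The log2 fold change of DDB2 was 0.71 (SE 0.146, limma adjusted p = 0.00916). Its listed transcript, at chr11:47214465-47216873, is only 556 bases long, and if the values describe that transcript, the lowest library corresponded to about 36.2 fragments. RRM2B, the p53-induced ribonucleotide reductase subunit that supplies nucleotides for repair, was at 10.8, 10.4 and 11.0 FPKM against 9.13, 10.7 and 9.13 FPKM and was not called (log2 fold change 0.14, limma adjusted p = 0.157). POLH, the polymerase that copies past ultraviolet lesions, averaged 4.90 and 4.86 FPKM, and the 95% interval of its log2 fold change ran from -0.21 to 0.23.

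Of 4 metabolism and redox genes, SESN1 fell (25%) and TIGAR rose (25%), both near the threshold. Among all genes, 16.8% were lower and 23.9% higher. SESN1, a sestrin that restrains mTORC1 under stress, was at 4.39, 5.21 and 4.37 FPKM with miR-204-5p mimics and at 6.33, 5.52 and 7.18 FPKM with control mimics. The groups did not overlap, with a log2 fold change of -0.37 (SE 0.104, limma adjusted p = 0.0282), but the call was lost in 5 of 13 alternatives, in which the adjusted p reached 0.0835. TIGAR, a phosphatase that diverts glucose from glycolysis, was at 6.63, 6.60 and 5.76 FPKM against 5.42, 5.08 and 5.43 FPKM. Its log2 fold change of 0.21 (SE 0.0686, limma adjusted p = 0.0458) was not called in 9 of 13 alternatives, which included all 3 other scalings of the libraries and gave an adjusted p of up to 0.129. FDXR, the mitochondrial ferredoxin reductase, averaged 24.9 FPKM in both groups (95% interval of the log2 fold change -0.22 to 0.20). TP53I3, a quinone oxidoreductase also known as PIG3, was at 8.73, 7.71 and 7.03 FPKM against 8.40, 9.50 and 8.80 FPKM (change -0.17 on the log2 scale, limma adjusted p = 0.159).

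**Figure D2:**
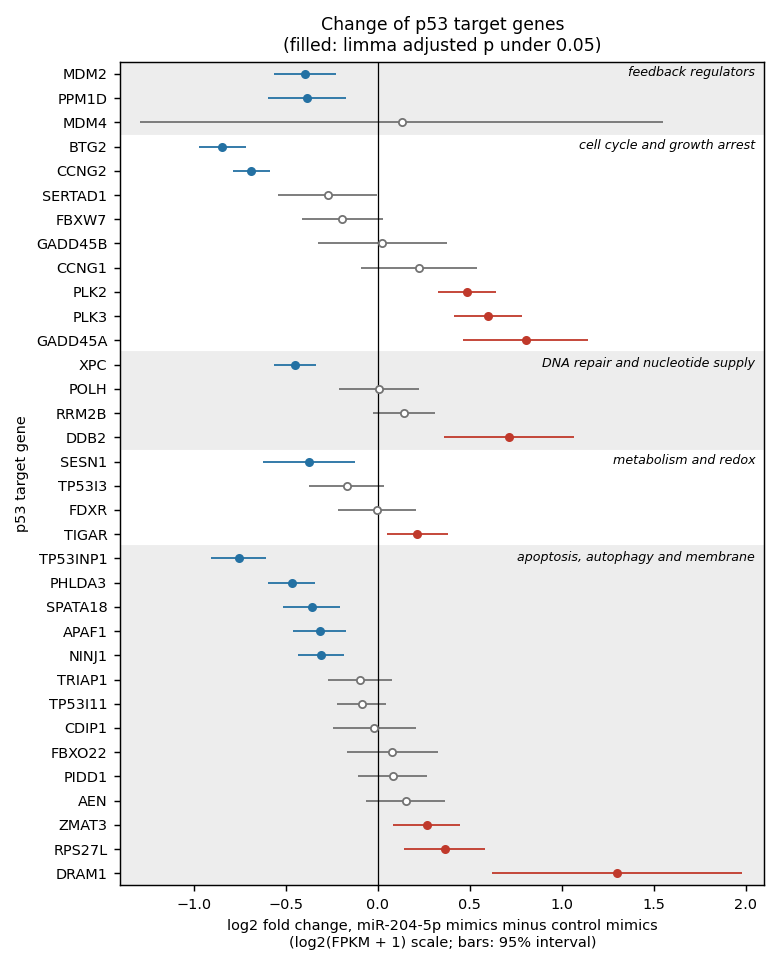
The log2 fold change of each p53 target gene (miR-204-5p mimics minus control mimics, log2(FPKM + 1) scale) is shown with its 95% interval from limma, by role. Filled points passed an adjusted p of 0.05, 11 of them to the left of 0 and 8 to the right, and the wide MDM4 bar runs from -1.29 to 1.55.

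Among 14 genes of apoptosis, autophagy and membrane change, 5 fell (35.7%) and 3 rose (21.4%), beside 16.8% and 23.9% of all genes. TP53INP1, a cofactor of p53 phosphorylation that also takes part in autophagy, was at 6.51, 6.76 and 6.09 FPKM with miR-204-5p mimics and at 12.3, 11.2 and 11.2 FPKM with control mimics. Its mean was 1.79-fold lower (6.45 ± 0.338 against 11.6 ± 0.665 FPKM), with a log2 fold change of -0.76 (SE 0.0621, limma adjusted p = 0.000280, chr8:94925972-94949411). PHLDA3, which competes with AKT for membrane lipids and so restrains survival signalling, was at 32.9, 29.2 and 31.9 FPKM against 43.4, 45.1 and 42.4 FPKM. Its log2 fold change was -0.47 (SE 0.0532, limma adjusted p = 0.000908). APAF1, the scaffold of the apoptosome that activates caspase-9, was at 4.04, 4.47 and 4.42 FPKM against 5.73, 5.67 and 5.41 FPKM. The drop was modest (log2 fold change -0.32, SE 0.0600, limma adjusted p = 0.00680) and without overlap.

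SPATA18, a mitochondrial quality control gene also called Mieap, was at 3.21, 2.89 and 2.77 FPKM against 4.08, 4.06 and 4.07 FPKM (log2 fold change -0.36, SE 0.0643, limma adjusted p = 0.00541). NINJ1, whose product ruptures the plasma membrane in lytic cell death, was at 44.9, 49.3 and 51.2 FPKM against 60.6, 59.4 and 60.7 FPKM (log2 fold change -0.31, SE 0.0527, limma adjusted p = 0.00452). In both genes the 3 controls lay closer together than the 3 mimic libraries, and the groups did not overlap.

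DRAM1, a lysosomal membrane protein that links p53 to autophagy, had the largest change of the 34 genes. It was at 19.6, 21.9 and 21.4 FPKM with miR-204-5p mimics and at 13.6, 5.72 and 6.24 FPKM with control mimics. Control replicate 1 stood well above the other 2 controls but remained below every mimic library. Its mean was 2.46-fold higher, with an SD of 1.18 FPKM in mimic and 4.39 FPKM in control libraries, and the log2 fold change was 1.30 (SE 0.283, limma adjusted p = 0.0115, chr12:101877351-101923623). Without control replicate 1 it was 1.65 (limma adjusted p = 0.000477), and over all 13 alternatives it stayed between 1.10 and 1.65. RPS27L, a ribosomal protein paralog that binds MDM2, was at 2.47, 2.38 and 2.16 FPKM against 1.30, 1.68 and 1.82 FPKM. The rise (log2 fold change 0.36, SE 0.0918, limma adjusted p = 0.0200) was not called without mimic replicate 1 (adjusted p = 0.0614) or 2 (adjusted p = 0.0611), nor with the replicate number as a block (adjusted p = 0.0538). ZMAT3, an RNA-binding regulator of splicing, was at 3.63, 4.07 and 4.35 FPKM against 2.99, 3.17 and 3.33 FPKM. Its groups did not overlap (log2 fold change 0.27, SE 0.0756, limma adjusted p = 0.0308), but 7 of 13 alternatives did not call it, with an adjusted p of up to 0.0920.

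The other 6 genes of the group were not called. AEN, a nuclease of apoptotic DNA breakdown, had a log2 change of 0.15 (limma adjusted p = 0.225), and PIDD1, the scaffold of the PIDDosome that activates caspase-2, had one of 0.08 (limma adjusted p = 0.445). FBXO22, a ubiquitin ligase subunit, also had a log2 change of 0.08 (limma adjusted p = 0.584). CDIP1, a mediator of death-receptor signalling, was at -0.02 (limma adjusted p = 0.897), and TRIAP1, a small mitochondrial lipid-transfer protein that protects from apoptosis, was at -0.10 (limma adjusted p = 0.330). TP53I11 was at 0.309, 0.198 and 0.302 FPKM against 0.414, 0.316 and 0.319 FPKM. Its groups did not overlap and its means differed 1.29-fold, but the change was not called (limma adjusted p = 0.249). On the length of its listed transcript, its lowest library corresponded to about 6.20 fragments, and at such a level the log2(FPKM + 1) scale, on which the change was -0.09, understates a fold change.

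TP63 and TP73, which encode relatives of p53, both fell. TP63 was at 23.9, 28.1 and 30.1 FPKM against 57.6, 55.4 and 54.7 FPKM, a mean 2.04-fold lower. Its log2 fold change was -1.01 (SE 0.0826, limma adjusted p = 0.000276). TP73 was at 1.47, 1.54 and 2.27 FPKM against 4.25, 2.99 and 4.76 FPKM, with more spread but no overlap (log2 fold change -0.85, SE 0.168, limma adjusted p = 0.00793). A single value per gene does not separate the isoforms of these genes that carry or lack the activation domain, and protein was not measured.

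Among 19 p53 activation genes, TP63 and TP73 together with the kinases, acetylases, ligases and other proteins that act on p53, 6 were lower (31.6%) and 5 were higher (26.3%), beside 16.8% and 23.9% of all genes, with a median log2 fold change of -0.06. ATR, the kinase that signals stalled replication to p53, rose from 4.21, 4.36 and 4.23 FPKM in controls to 6.58, 7.64 and 7.01 FPKM (log2 fold change 0.61, SE 0.0656, limma adjusted p = 0.000711). CREBBP, an acetylase that binds p53 at its targets, fell from 11.7, 11.4 and 10.3 FPKM to 6.61, 6.82 and 7.72 FPKM (log2 fold change -0.59, SE 0.0751, limma adjusted p = 0.00136). The number of higher calls in this list was 3 without mimic replicate 2, without control replicate 1 or without control replicate 3. Over all genes the higher calls in these settings numbered 2876 to 3027, beside 3578 with all libraries.

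**Figure D3:**
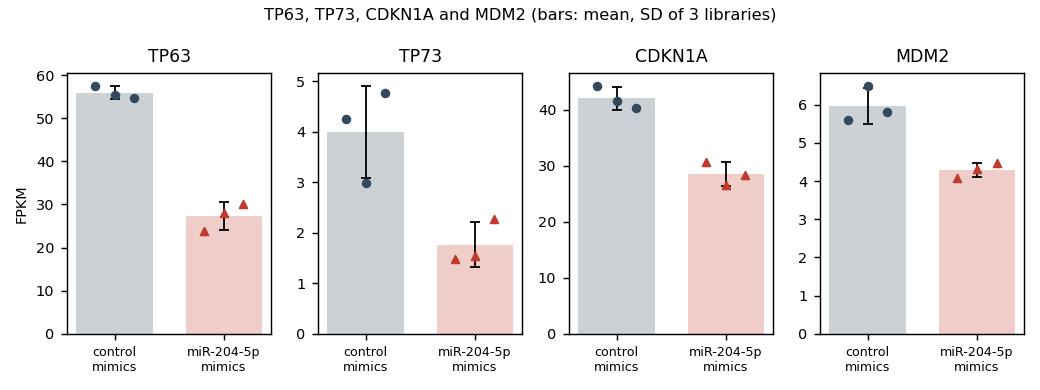
FPKM of TP63, TP73, CDKN1A and MDM2 in each library is shown for control mimics (dots) and miR-204-5p mimics (triangles), with bars at the mean and error bars of 1 SD (n = 3 libraries per group) on linear axes from 0. The groups are separate for all 4 genes, with TP63 at 23.9 to 30.1 FPKM in mimic and 54.7 to 57.6 FPKM in control libraries.

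Of CDKN1A and 29 further p53 target genes outside the 34, 8 were lower (26.7%) and 6 were higher (20%), beside 16.8% and 23.9% of all genes, and the median log2 fold change was close to 0. Called genes in either direction made up 46.7%, near the 40.8% of all genes. CDKN1A, which encodes the CDK inhibitor p21, was at 30.8, 26.5 and 28.4 FPKM with miR-204-5p mimics and at 44.3, 41.6 and 40.3 FPKM with control mimics. It was lower in every mimic library, with a mean 1.47-fold lower and a log2 fold change of -0.54 (SE 0.0639, limma adjusted p = 0.00102, chr6:36676460-36687337). SESN2, the second sestrin, was at 10.5, 10.5 and 10.7 FPKM against 16.0, 16.4 and 15.8 FPKM (change -0.56 on the log2 scale, limma adjusted p = 0.000175). The largest rises were those of CMBL, a hydrolase gene (log2 fold change 1.17, limma adjusted p = 0.000322), FAM210B, a mitochondrial protein gene (0.73, limma adjusted p = 0.000672), and TRIM22, an antiviral ligase gene (0.69, limma adjusted p = 0.000433).

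The DREAM complex, acting with p21, represses many mitotic genes when p53 is active. Of 20 such genes, 4 were lower (20%) and 5 were higher (25%), near the 16.8% and 23.9% of all genes, with a median log2 fold change of 0.05. CCNA2, the S-phase cyclin A2, fell from 36.7, 34.4 and 36.5 FPKM to 22.8, 24.3 and 22.5 FPKM (change -0.61 on the log2 scale, limma adjusted p = 0.000211). FOXM1, a factor that drives mitotic genes, was also lower (log2 fold change -0.45, limma adjusted p = 0.00148), and KIF23, a kinesin of cytokinesis, was higher (log2 fold change 0.44, limma adjusted p = 0.00125). AURKB, the kinase of the chromosomal passenger complex, had a log2 change of -0.35 (limma adjusted p = 0.0223), which was not called without mimic replicate 1 (adjusted p = 0.0701) or 2 (adjusted p = 0.0749). Lower calls in this list numbered 2 without mimic replicate 1, and higher calls numbered 3 without mimic replicate 2. Over all genes, lower calls went from 2520 to 2138 and higher calls from 3578 to 2921 in these settings.

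**Figure D4:**
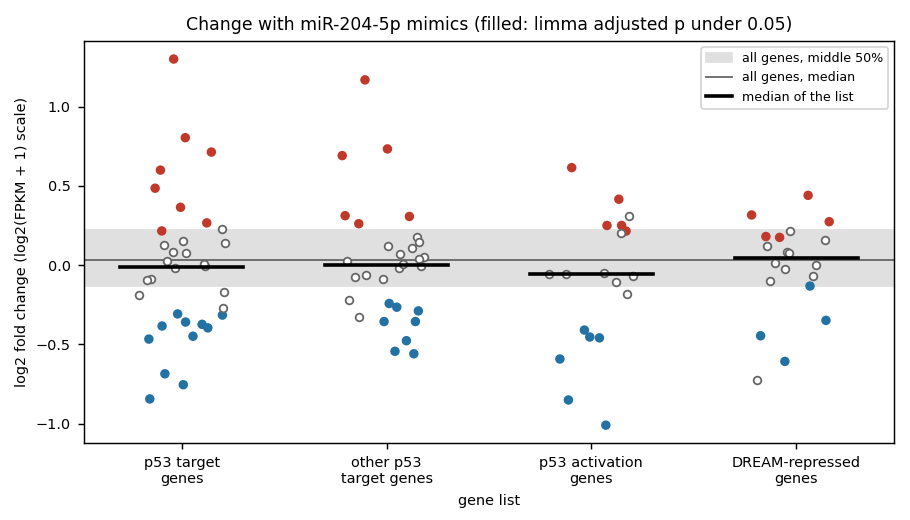
Each point is a gene of 1 of 4 lists, plotted by its log2 fold change (log2(FPKM + 1) scale), filled where the limma adjusted p was under 0.05. Thick lines mark the medians of the lists (-0.01 for the p53 target genes), and the grey band spans the quartiles of all genes, from -0.13 to 0.22.

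The mimicked miRNA is shown first, with its seed (bases 2 to 8) in capitals, because seed pairing is the usual guide to candidate target sites. Mature hsa-miR-204-5p lies at chr9:70810031-70810052 on the minus strand of GRCh38.p14 in RefSeq.
hsa-miR-204-5p: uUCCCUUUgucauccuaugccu
Matches to the seed were sought as the 8mer AAAGGGAA, the 7mer-m8 AAAGGGA and the 7mer-A1 AAGGGAA in each gene's longest 3'UTR annotated by GENCODE 29, on the transcribed strand only, with each site counted once as its longest class. A match was found in 15 of 34 p53 target genes (44.1%), beside 27.1% of the 14664 genes with a 3'UTR. The 3'UTRs of the 34 were also longer, with a median of 1916 bases against 1252 bases. Of the 15 genes with a match, 4 were lower (26.7%) and 3 were higher (20%), with a median log2 fold change of 0.0073, beside 27.0% lower and 16.4% higher among all genes with a match. The 3 higher genes, RPS27L, ZMAT3 and TIGAR, all lost their calls without mimic replicate 2. Of the 19 genes without a match, 7 were lower (36.8%) and 5 were higher (26.3%), with a median of -0.02, beside 13.4% and 27.2% of all genes without one. Over all genes the medians were -0.08 for an 8mer, -0.03 for a 7mer-m8, -0.0029 for a 7mer-A1 and 0.06 for no match.

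Sites are shown for 3 genes that fell (MDM2, BTG2, APAF1), 3 genes that rose (RPS27L, ZMAT3, TIGAR) and POLH, which was not called, because they show that a match was present on either side of 0. Each line gives 30 bases of the GRCh38 transcript strand with the match in capitals.
MDM2 7mer-m8, chr12:68843737-68843743: aataaatggccAAAGGGAttagtagtttac
BTG2 7mer-A1, chr1:203308159-203308165: ggttaggatggAAGGGAActctgcacaaaa
APAF1 7mer-A1, chr12:98734575-98734581: ggggagagggtAAGGGAAtagatcactcag
RPS27L 8mer, chr15:63151800-63151807: aggatgccatcAAAGGGAAtgtagtgccat
ZMAT3 7mer-m8, chr3:179020875-179020881: tgaacagggagAAAGGGAgatatgtatgtc
TIGAR 7mer-m8, chr12:4353962-4353968: ggcactggagaAAAGGGAttttgattaact
POLH 8mer, chr6:43614648-43614655: atttccctgagAAAGGGAAttatgaaattt
The MDM2 site lies in the last exon, 3888 bases into a 3'UTR of 10837 bases. The BTG2 and APAF1 sites are in the longest 3'UTR of the gene but not in the transcript listed in the table, and whether the measured RNA carried them is not known. Of the 3 genes with an 8mer, RPS27L was higher and POLH and FBXO22 were not called, and FBXO22 had 6 matches in a 3'UTR of 9408 bases. Among all 1261 genes with an 8mer, 33.5% were lower and 13.3% were higher. With all annotated 3'UTRs of a gene joined, MDM2, which fell, also had an 8mer, which made 4 genes. TP53INP1, which fell by 0.76 on the log2 scale, had a 7mer-m8 in its listed transcript that is not printed. The most strongly lowered genes without a match were CCNG2 (log2 fold change -0.69) and PHLDA3 (-0.47), and CDKN1A had none. TP63 had 2 matches and TP73 had 1, each of the 7mer-m8 class.

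**Figure D5:**
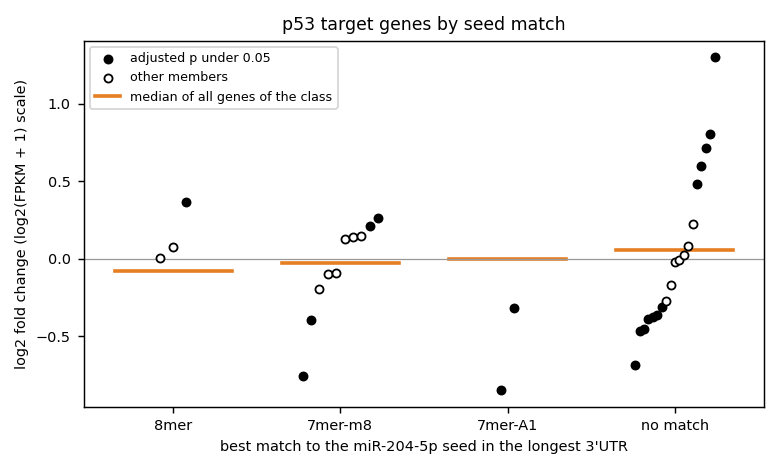
The 34 p53 target genes are plotted by log2 fold change (log2(FPKM + 1) scale) in columns for the best miR-204-5p seed match in the longest 3'UTR, filled where the limma adjusted p was under 0.05. Orange lines are medians of all genes of the class, from -0.08 for the 8mer to 0.06 for no match, and both directions occur with and without a match.

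Promoters of 29 of the 34 genes were matched in RefSeq (GRCh38.p14), as windows from 250 bases before to 50 bases after each start. The consensus p53 half-site of 10 bases, searched on both strands, was present in 6 of these 29 genes (20.7%), beside 8.06% of 27305 genes. By promoter, it was in 6 of 44 (13.6%) against 6.63% of 35116. The genes with a half-site were AEN, DDB2, FDXR, PLK2, RPS27L and SESN1. Of these, DDB2, PLK2 and RPS27L rose, SESN1 fell and AEN and FDXR were not called. Among all genes, whatever their promoters, 23.9% were higher and 16.8% lower. DDB2 alone had 2 half-sites side by side, 1 base apart, the arrangement of a full p53 site. The half-sites of the 4 called genes are shown in capitals within 30 bases of the gene's strand.
DDB2, chr11:47214979-47214999: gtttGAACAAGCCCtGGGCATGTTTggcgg
PLK2, chr5:58460209-58460218: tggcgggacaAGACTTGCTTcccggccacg
RPS27L, chr15:63157527-63157536: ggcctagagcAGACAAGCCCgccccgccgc
SESN1, chr6:109009028-109009037: attgtcgtctGGACAAGTCTccacaagtca
A match is a sequence in the window and no measurement of binding, and p53 sites in introns or farther upstream lay outside it.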

How the data were processed

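RNA from 3 libraries per group was prepared with an Illumina TruSeq RNA kit and sequenced on HiSeq X instruments. The submitters' processing notes name HISAT2, StringTie and build hg38 without versions. The authors deposited FPKM per gene and library, with log2 ratios, p-values and FDR of their own from edgeR, which were not used. Counts were not analysed here, and strand use in quantification is not given in the sources used here. Of 14959 listed transcripts, 14951 were found in GENCODE 29 and 14832 had the same coordinates. Depth was inferred from steps of low FPKM values: 31.8% to 37.3% were whole multiples (within 0.03) of the FPKM of 1 fragment, against 4.59% to 5.20% at other steps, so whole reads were not recovered, and 1 fragment on 1 kb equalled 0.0610 to 0.0765 FPKM.

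Group means of log2(FPKM + 1) were compared for every gene, with no filter, by the two-sided test of limma (version 3.58.1 under R 4.3.3, eBayes with a mean-variance trend). The Benjamini-Hochberg adjustment covered all 14959 genes, with a threshold of 0.05. The fit was tested on simulated data. There, 72 of 100 genes with a log2 change of 0.5 and 96 of 100 with a change of 1 were called. Of 14759 unchanged genes, 5 were called. Far fewer genes changed there than the 6098 called in the data, so these rates need not hold for the data. Fold changes on this scale understate those of low genes. Other steps used Python 3.11.15, pandas 2.3.3 and numpy 2.4.6, and figures used matplotlib 3.10.9. The 34 genes and the other lists were chosen with earlier results of these data known, so no list was given a test. A gene of the p53 activation list is not reported here. Full statistics were set for p53 target genes called with an absolute log2 fold change of at least 0.5 and for MDM2 and CDKN1A, and up to 4 genes of each other list were named. Values of further p53 target genes are given beside these. Members without a promoter match were FBXO22, GADD45A, PHLDA3, RRM2B and TP53INP1. Same-numbered libraries of the 2 groups did not deviate together across genes (r of -0.03, -0.01 and -0.09), so replicate numbers were not used to pair libraries.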

Additional observations from a re-analysis of the deposited data

How the results depend on the processing

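The 13 alternatives were 3 scalings (equal sums, equal medians, quantiles), a pseudocount of 0.1, a minimum mean of 1 FPKM, the replicate number as a block, eBayes without trend and each of the 6 libraries left out. Between 16 and 19 of the p53 target genes were called under every one, and 15 of the 19 calls were kept in all 13. Over all genes the calls numbered 4971 to 6089 in these settings, beside 6098 as reported. With the replicate block 16 p53 target genes were called (10 lower, 6 higher), and SESN1, TIGAR and RPS27L lost their calls (limma adjusted p = 0.0741, 0.0980 and 0.0538). Over all genes 5096 were then called (2097 lower, 2999 higher). With 1 library left out, higher calls numbered 5 to 7 among p53 target genes and 3 to 6 among p53 activation genes. Among DREAM-repressed genes they numbered 3 to 5, and lower calls numbered 2 to 4. Without mimic replicate 2, the p53 target genes had 5 higher calls, and lower calls were 68.8% of their calls, beside 41.5% over all genes. Leaving out 1 library gave 2876 to 3138 higher and 2045 to 2271 lower calls over all genes, beside 3578 and 2520 as reported. RRM2B was called without control replicate 2 (limma adjusted p = 0.0336). The cause of these shifts was not tested. Over all genes, 2520 lower and 3578 higher calls became 3026 and 3043 with quantile normalization. With all 3'UTRs of a gene joined, 15 of the 34 genes still had a seed match. Overlaps with transcripts of the other strand in the table also concerned TP53I3 (80 bases), FBXO22 (47), PIDD1 (12) and POLH (4). Intervals from inferred fragments cover counting error only.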
